A study of Mus musculus with 36 samples.

Results

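The regions described here are 123 ATAC-seq peaks, of 116556 on chromosomes 1 to 19, that were more open in mouse dendritic cells after PAM and after LPS but not after SeV or 3',3'-cGAMP. ATAC-seq measures open chromatin by inserting sequencing adapters into it with a transposase. Counts scaled to library size (CPM, counts per 1000000) were put on the scale log2(CPM + 0.5), centred on the median of each library, and the mean of the control group was subtracted from the mean of each stimulated group. A peak was taken when this difference, called the change against control below, was at least 1.5 for PAM and for LPS and at most 0.5 for SeV and for 3',3'-cGAMP. The members were thus chosen by the values of these 5 groups, which are given as a description, while the other 13 groups had no part in the choice. In all, 3663 peaks (3.14%) reached 1.5 with PAM and 2783 (2.39%) with LPS, 1210 reached it with both, and the limits on SeV and 3',3'-cGAMP left the 123.

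The cells were bone marrow-derived dendritic cells, grown with GM-CSF from the marrow of female C57BL/6J mice aged 6 to 8 weeks and stimulated for 6 h. There were 36 libraries in 18 groups of 2. Single stimuli were PAM (P), LPS (L), HMW (H), depleted zymosan (Z), SeV (S) and 3',3'-cGAMP (cG), beside an unstimulated control (Ctrl). The 8 pairs were PL, PH, LH, PS, PcG, ZS, ZcG and ScG, and the 3 triplets were PLH, PScG and ZScG. The labels do not spell out HMW or PAM and give no dose. The background below takes PAM to be a Pam lipopeptide. They do not say that the 2 libraries of a group came from separate cultures or animals, so p-values measure only the spread between these libraries, which may be technical. In bulk cells, a site that opened in more cells and a site that opened further in each cell cannot be told apart.

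Lipopeptides of the Pam type are sensed by Toll-like receptor 2 and LPS by Toll-like receptor 4, both on the cell surface. Both receptors signal through the adaptor MyD88 to the NF-kB and AP-1 transcription factors, and Toll-like receptor 4 also uses the adaptor TRIF. SeV, the usual abbreviation of Sendai virus, is sensed as RNA in the cytosol, and cyclic dinucleotides such as cGAMP bind STING; both routes are best known for inducing type I interferon. Depleted zymosan is a yeast cell wall preparation used as a ligand of the lectin receptor Dectin-1. In dendritic cells, MyD88 signalling is known for inducing cytokines and acute-phase genes within hours, and much of the chromatin that opens with it lies in enhancers away from gene starts.

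The members were mostly away from gene starts, and 3 of the 123 overlapped a RefSeq promoter window (GRCm38.p6, 250 bases before to 50 after a start). Such windows were at hand for 16456 of the 20661 protein-coding genes on chromosomes 1 to 19 (79.6%). A member at the start of another gene would be missed by this count. These 3 promoters are printed because they are the members whose sequence could be read and because they tie a member to a gene. They belong to Lcn2, which encodes the iron-siderophore binding protein lipocalin 2, to Fpr1, a receptor for formylated bacterial peptides, and to Zfp811, a zinc finger gene. The 250 bases before each start lie on the minus strand at chr2:32387740-32387989, chr17:17883940-17884189 and chr17:32809932-32810181 and read 5′ to 3′, with motif matches in capitals:
Lcn2: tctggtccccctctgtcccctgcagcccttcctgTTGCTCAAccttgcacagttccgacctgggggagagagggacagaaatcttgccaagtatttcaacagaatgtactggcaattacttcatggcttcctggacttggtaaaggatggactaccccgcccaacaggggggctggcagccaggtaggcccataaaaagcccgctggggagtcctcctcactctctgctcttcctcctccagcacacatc
Fpr1: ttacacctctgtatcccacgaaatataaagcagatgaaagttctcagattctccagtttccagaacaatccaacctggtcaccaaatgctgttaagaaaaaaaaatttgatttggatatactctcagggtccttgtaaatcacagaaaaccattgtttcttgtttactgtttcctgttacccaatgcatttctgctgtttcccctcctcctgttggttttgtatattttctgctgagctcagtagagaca
Zfp811: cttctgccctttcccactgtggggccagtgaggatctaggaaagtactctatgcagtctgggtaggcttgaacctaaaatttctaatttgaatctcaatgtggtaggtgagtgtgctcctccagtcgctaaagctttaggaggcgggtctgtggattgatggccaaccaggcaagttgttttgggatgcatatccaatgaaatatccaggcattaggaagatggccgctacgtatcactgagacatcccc
The capitals in Lcn2 mark a match to the C/EBP pattern TTGCNNAA, read as TTGCTCAA 216 to 209 bases before the start. Each sequence was searched on both strands for this pattern and for 2 NF-kB patterns, AP-1 (TGANTCA), CRE (TGACGTCA), ISRE, PU.1 (GAGGAAGT), RUNX (TGTGGTTT), E-box (CACGTG) and IRF/PU.1. The Fpr1 and Zfp811 sequences held no match in this window. Over 31396 RefSeq promoter windows, the C/EBP pattern was in 9.66%, AP-1 in 6.77%, the NF-kB patterns in 0.363% and 4.99%, the E-box in 6.02% and ISRE in 2.98%.

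Of the 123 members, 7 (5.69%) lay within 1000 bp of either end of a protein-coding gene, against 14.3% of all peaks on these chromosomes. Within gene bodies lay 60 members (48.8%), against 59.3% of all peaks. Over 50000 bp from any protein-coding gene body lay 32 members (26.0%), against 11.9% of all peaks. The members were somewhat wider than other peaks, with a median of 554 bp against 451 bp, and their mean level over libraries had a median of 3.25 CPM against 2.75 CPM. They were spread over the genome: at a gap of 10000 bp they formed 121 loci, of which 2 held a pair of members, beside Nek7 and at Zfp811. Fmn1, which encodes the actin nucleator formin 1, was the nearest gene of 3 members among 45 peaks. Below, near a gene means only that it was the nearest protein-coding gene, at any distance. That distance was 77701 bp for Dnajb6, 105314 bp for Iqub and 194213 bp for Tmem167.

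In the 7 groups outside the rule that held PAM or LPS, the members had high levels again, and in the 6 groups without either their levels were low. The summed CPM of the members was 760 to 1342 in the 14 libraries with PAM or LPS and 247 to 324 in the 12 libraries without. These ranges do not overlap. By group the sum was 1322 ± 27.4 CPM (SD, n = 2) in PH, 1160 ± 75.1 in PL, 1090 ± 38.2 in PLH, 979 ± 34.5 in PcG, 937 ± 15.4 in LH, 874 ± 25.4 in PS and 769 ± 13.1 in PScG. It was 320 ± 6.30 CPM in Z, 315 ± 2.70 in H, 271 ± 5.40 in ZS, 267 ± 2.07 in ScG, 256 ± 1.72 in ZScG and 253 ± 9.25 in ZcG. Neighbours in this order that differed by less than their summed SDs were PL and PLH, PcG and LH, Z and H, ZS and ScG, and ZScG and ZcG. In the groups of the rule the sum was 864 to 1292 CPM in P and L and 188 to 229 CPM in Ctrl, S and cG. Peak by peak, 72 members (58.5%) had every library of the 7 groups above every library of the 6, against 1.04% of all peaks.

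**Figure D1:**
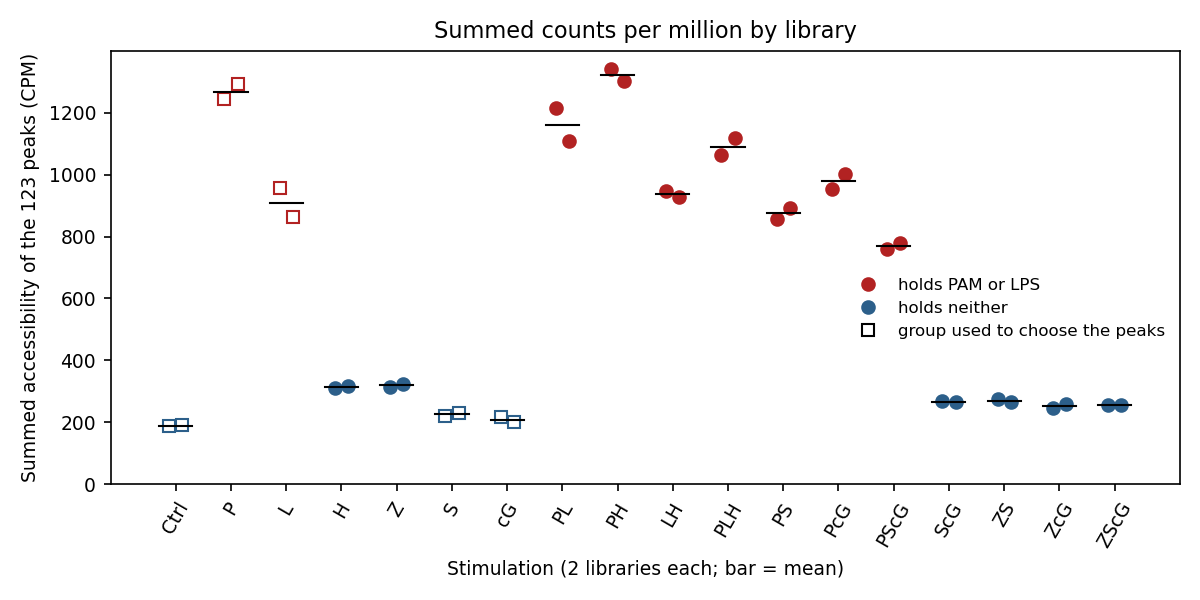
Summed CPM of the 123 members (y axis) in each library, by group (x axis), with 2 points and a bar for the mean in each group, red where PAM or LPS was present and open squares for the groups that chose the members. The 14 libraries with PAM or LPS outside the rule sit between 760 and 1342 CPM, above the 247 to 324 CPM of the 12 without.

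The size of the opening varied between the combinations. The median change against control over the members was 2.31 in PH, 2.08 in PL, 2.06 in PLH, 1.87 in PcG, 1.71 in LH, 1.69 in PS and 1.51 in PScG, on the log2(CPM + 0.5) scale. All these values subtract the control libraries that the rule used. They and the counts that follow are therefore not independent of the choice, and nothing is read from the counts beside the shares of all peaks. The 1.5 mark was reached by 119 members in PH, where 3.96% of all peaks reached it, by 103 in PL (4.03%), 103 in PLH (4.12%), 93 in LH (2.62%), 91 in PcG (4.75%), 78 in PS (5.26%) and 62 in PScG (6.07%). The choice of members asked for a high P, so lower values elsewhere are partly fixed by it: the change in PScG was below that in P in 105 members, in PS in 102 and in PcG in 100. With both ligands at once, the change in PL was above that in P and in L in 43 members, between them in 50 and below both in 30.

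HMW and depleted zymosan alone left most members below the 1.5 mark. The median change was 0.46 in H and 0.61 in Z, with 1 member at 1.5 or more in H (0.804% of all peaks) and 4 in Z (0.814%). Both H and Z were at most 0.5 in 43 members, against 73.4% of all peaks, and both above 0.5 in 46, against 9.67%. These changes subtract the Ctrl libraries that the rule used, so they are not independent of the choice and nothing is read from these shares. The highest members in H were near Birc3, an inhibitor of apoptosis (1.57), Prkch, a protein kinase C (1.41), and in Nav3 (1.41). The highest in Z were in Col24a1 (1.73), near Fgf9 (1.61) and in Sox6 (1.55). The lowest in H were in Cwc27 (-0.98), near Dnajb6 (-0.60) and in Eif4g3 (-0.58), and the lowest in Z were in Pik3ap1 (-1.06), in Cd2ap (-0.78) and near Dgkh (-0.62). The medians in the pairs and the triplet without PAM or LPS were 0.43 in ScG, 0.37 in ZcG, 0.34 in ZScG and 0.31 in ZS.

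**Figure D2:**
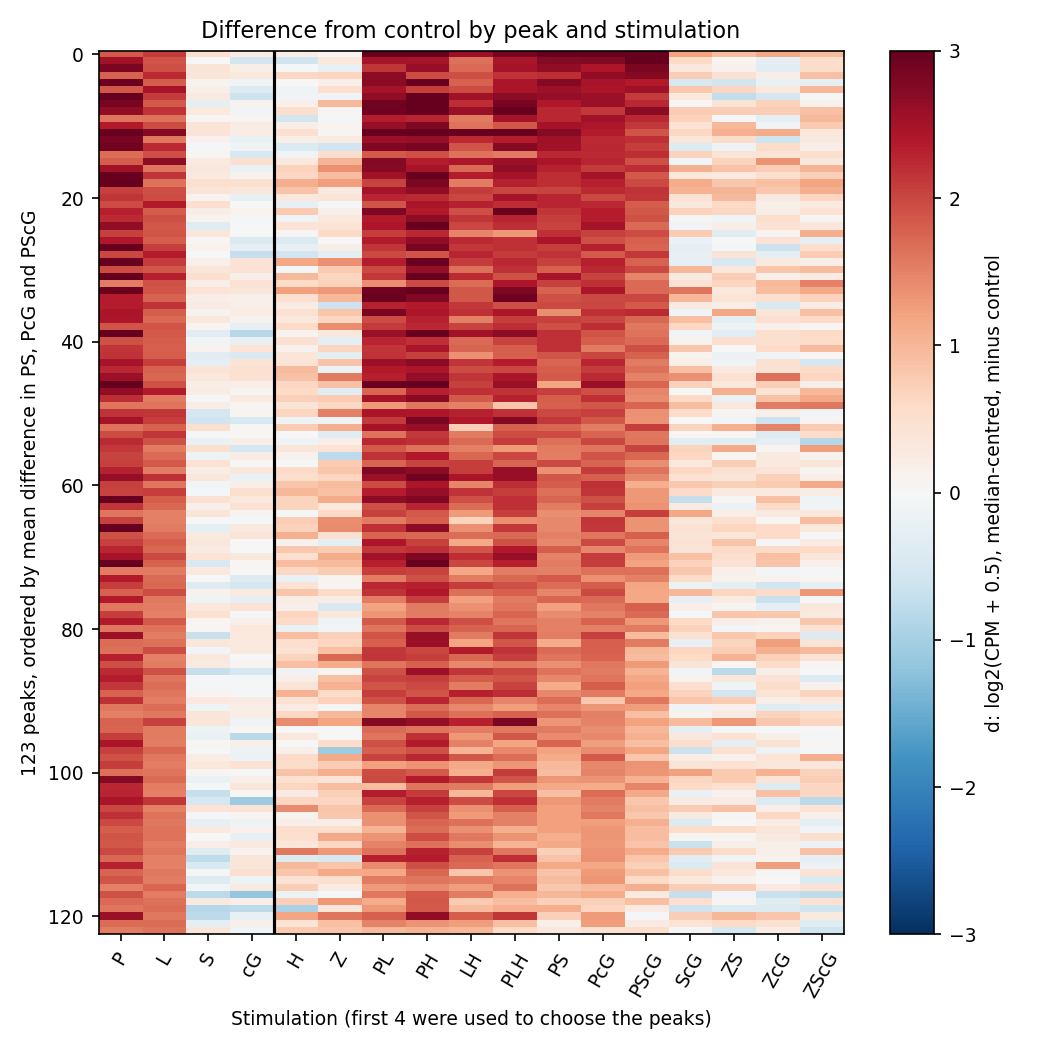
Change against control of each of the 123 members (rows) in each stimulated group (columns, the first 4 used in the choice), as colour on the log2(CPM + 0.5) scale. The columns with PAM or LPS hold medians of 1.51 to 2.31, and the columns of H, Z, ScG, ZS, ZcG and ZScG medians of 0.31 to 0.61.

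Tests were made only between groups that had no part in the choice, by edgeR's quasi-likelihood test with Benjamini-Hochberg adjustment over 119542 peaks. Every one of the 123 members entered the fit, and 207 of all peaks were filtered out. When PAM was added to HMW (PH against H), 108 members were higher and 0 lower, where 5.63% of all peaks were higher and 1.92% lower. The median log2 fold change of the members was 2.198. When LPS was added to HMW (LH against H), 81 were higher and 0 lower (2.68% of all peaks higher and 1.09% lower), with a median of 1.65, and 80 members were higher in both comparisons, which share the H libraries, where 2.0% of all peaks were. Without either H library the LH count was 60 to 62. PAM with HMW exceeded LPS with HMW (PH against LH) in 14 members and the reverse held in 0, where 0.679% of all peaks were higher and 0.223% lower, and the fitted value was above 0 in 118 members, with a median of 0.55. Leaving out any 1 of the 4 PH and LH libraries brought the 14 down to 3 or 4. The 14 included peaks near Incenp (2.197 ± 0.53, SE, adjusted p = 0.0117), Tmem167 (1.74 ± 0.40, adjusted p = 0.00797) and Lox, which encodes the collagen cross-linking enzyme lysyl oxidase (1.33 ± 0.24, adjusted p = 0.000107); these 3 were named after their values were seen.

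PAM also raised most of the members in cells that received SeV, 3',3'-cGAMP or both. PS against ZS gave 77 members higher and 0 lower (4.34% of all peaks higher and 2.86% lower), with a median log2 fold change of 1.64. PcG against ZcG gave 95 higher and 0 lower (4.69% and 5.13% of all peaks), with a median of 1.89. These 2 comparisons set PAM in the place of depleted zymosan, so a change with zymosan would enter them too. PScG against ScG, in which PAM was added to both other stimuli, gave 70 higher and 0 lower (2.06% and 2.48% of all peaks), with a median of 1.37. That count fell to 45 without either ScG library and to 48 or 50 without a PScG library. Over PH against H and these 3 comparisons, 55 members were higher in all 4, 24 in 3, 22 in 2, 14 in 1 and 8 in none. Of all peaks tested, 0.648% were higher in all 4, 0.997% in 3, 2.07% in 2 and 7.0% in 1. The share of mitochondrial counts differed between the groups compared, at 45.1% in PcG and 63.0% in ZcG and at 45.1% in PScG and 59.4% in ScG. It was 45.8% in PS and 54.5% in ZS, and 50.4% in PH and 51.6% in H. Its part in these results was not tested.

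Adding depleted zymosan to the pair of SeV and 3',3'-cGAMP (ZScG against ScG) gave 0 members higher or lower by edgeR's test, with 13 at an unadjusted p under 0.05, where 0.314% of all peaks were higher and 0.457% lower. DESeq2's Wald test called 0 as well. The fitted value was above 0 in 60 of the 123 members. Against its pairs, PScG had 0 members called by edgeR against PcG (0.193% of all peaks higher and 0.211% lower) and 0 against PS (0.363% and 0.239%), with 32 and 19 at an unadjusted p under 0.05. DESeq2 called 1 and 0. The median was -0.35 against PcG, with 28 members above 0, and -0.18 against PS, with 42 above 0. Adding LPS to PH (PLH against PH) gave 0 members called by edgeR and 0 by DESeq2, with 24 at an unadjusted p under 0.05 and a median of -0.35 (0.145% of all peaks higher and 0.13% lower). Adding PAM to LH (PLH against LH) gave 2 members higher, near Dcn (1.00 ± 0.27, adjusted p = 0.0484) and near Klf6 (0.65 ± 0.16, adjusted p = 0.0315), where 0.34% of all peaks were higher and 0.195% lower. Both were named after their values were seen, and 0 were called when any 1 of the PLH or LH libraries was left out.

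**Figure D3:**
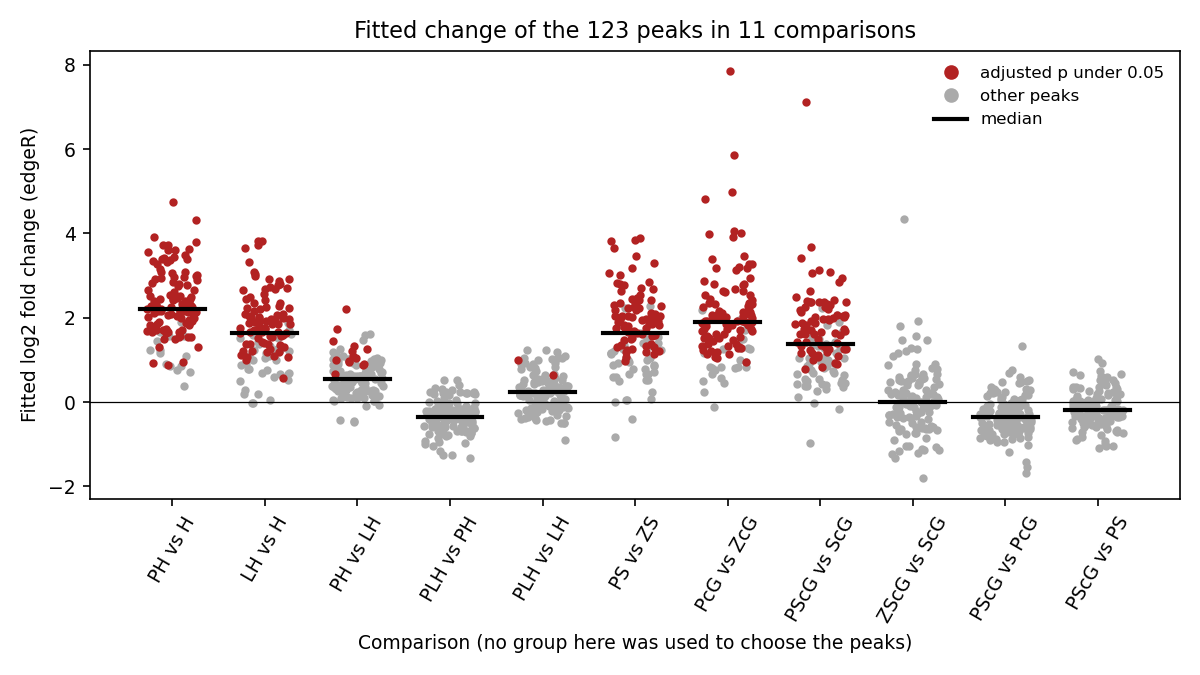
Fitted log2 fold change of the 123 members (y axis, 1 point each, red where the adjusted p was under 0.05, bar for the median) in each of the 11 tested comparisons (x axis). The 5 comparisons of a group with PAM or LPS against one with neither have medians of 1.37 to 2.198, and the other 6 medians between -0.35 and 0.55.

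Among secreted products of the pathway, 4 genes of the list were the nearest gene of a member: Lcn2, Il1b, Il6 and Csf3. These were 4 of the list's 382 nearest peaks (1.05%), against 0.106% of all peaks. By the nearest listed start instead, Lcn2, Il1b, Il6, Il12a and Csf2 had 1 member each. No peak at all had Csf3 as its nearest listed start, so this measure could give Csf3 no member. The Lcn2 member (chr2:32387487-32388472) covers the printed promoter. Its level was 3.04 and 1.97 CPM in the Ctrl libraries, 13.5 and 14.7 in P, 14.1 and 11.1 in L, 3.38 and 2.76 in S and 2.56 and 1.84 in cG, which chose it. Outside the rule it read 13.7 and 16.7 CPM in PH against 3.56 and 3.56 in H. It read 13.8 and 15.1 CPM in PScG against 3.20 and 4.20 in ScG. The highest library without PAM or LPS, in ZS at 6.59 CPM, lay below the lowest with them outside the rule, in PcG at 11.6 CPM. By edgeR's test it was higher in PH against H (2.09 ± 0.24, adjusted p = 1.25e-12) and in PScG against ScG (1.87 ± 0.26, adjusted p = 1.44e-08).

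The Fpr1 member (chr17:17883600-17885378) was among the strongest members and kept a smaller difference in the combinations. It read 65.6 and 61.3 CPM in PH against 33.0 and 34.0 in H, and 42.0 and 48.2 CPM in PScG against 23.7 and 20.7 in ScG. The libraries of both comparisons were separate, with log2 fold changes of 0.92 ± 0.12 (edgeR, adjusted p = 4.08e-10) and 0.92 ± 0.13 (adjusted p = 9.56e-08). In H and Z, without PAM or LPS, it read 30.4 to 39.4 CPM, between the 17.0 and 14.8 CPM of Ctrl and the 68.2 and 69.7 CPM of P. Lcn2 and Fpr1 are also expressed by neutrophils. Of the 3 neutrophil markers checked, Ly6g and Ngp had no peak and Camp had; their summed level was 22.6 to 42.1 CPM in the 18 libraries with PAM or LPS and 13.8 to 26.8 CPM in the 18 others, and its part in these results was not tested.

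The Il1b member (chr2:129363814-129365242) lies in the gene of the cytokine interleukin 1 beta. It read 6.04 and 7.93 CPM in PH against 1.41 and 1.34 in H, and 5.97 and 6.32 CPM in PScG against 0.458 and 1.05 in ScG. Both were higher by edgeR's test (2.34 ± 0.38, adjusted p = 5.94e-07, and 2.93 ± 0.46, adjusted p = 7.93e-07). In PS against ZS it read 3.42 and 2.83 against 2.39 and 2.59 CPM and was not called (0.23 ± 0.38, adjusted p = 0.809). The Il6 member (chr5:29972674-29973447) lies 39667 bp from the gene of interleukin 6. It read 15.1 and 18.3 CPM in PH against 5.97 and 5.23 in H, and 9.60 and 9.85 CPM in PScG against 4.35 and 5.77 in ScG. The first difference passed the test (1.57 ± 0.24, adjusted p = 6.84e-08); the second passed it narrowly (0.84 ± 0.27, adjusted p = 0.0426) and was lost when any 1 of its 4 libraries was left out. Of the 29 peaks nearest Il6, 19 exceeded 0.5 with SeV and 14 with 3',3'-cGAMP, and this was the only member. The Csf3 member (chr11:98700948-98701523), at the gene of granulocyte colony-stimulating factor, read 4.11 and 4.15 CPM in PH against 1.58 and 1.22 in H (1.53 ± 0.42, adjusted p = 0.00734). That call was lost without either H library.

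**Figure D4:**
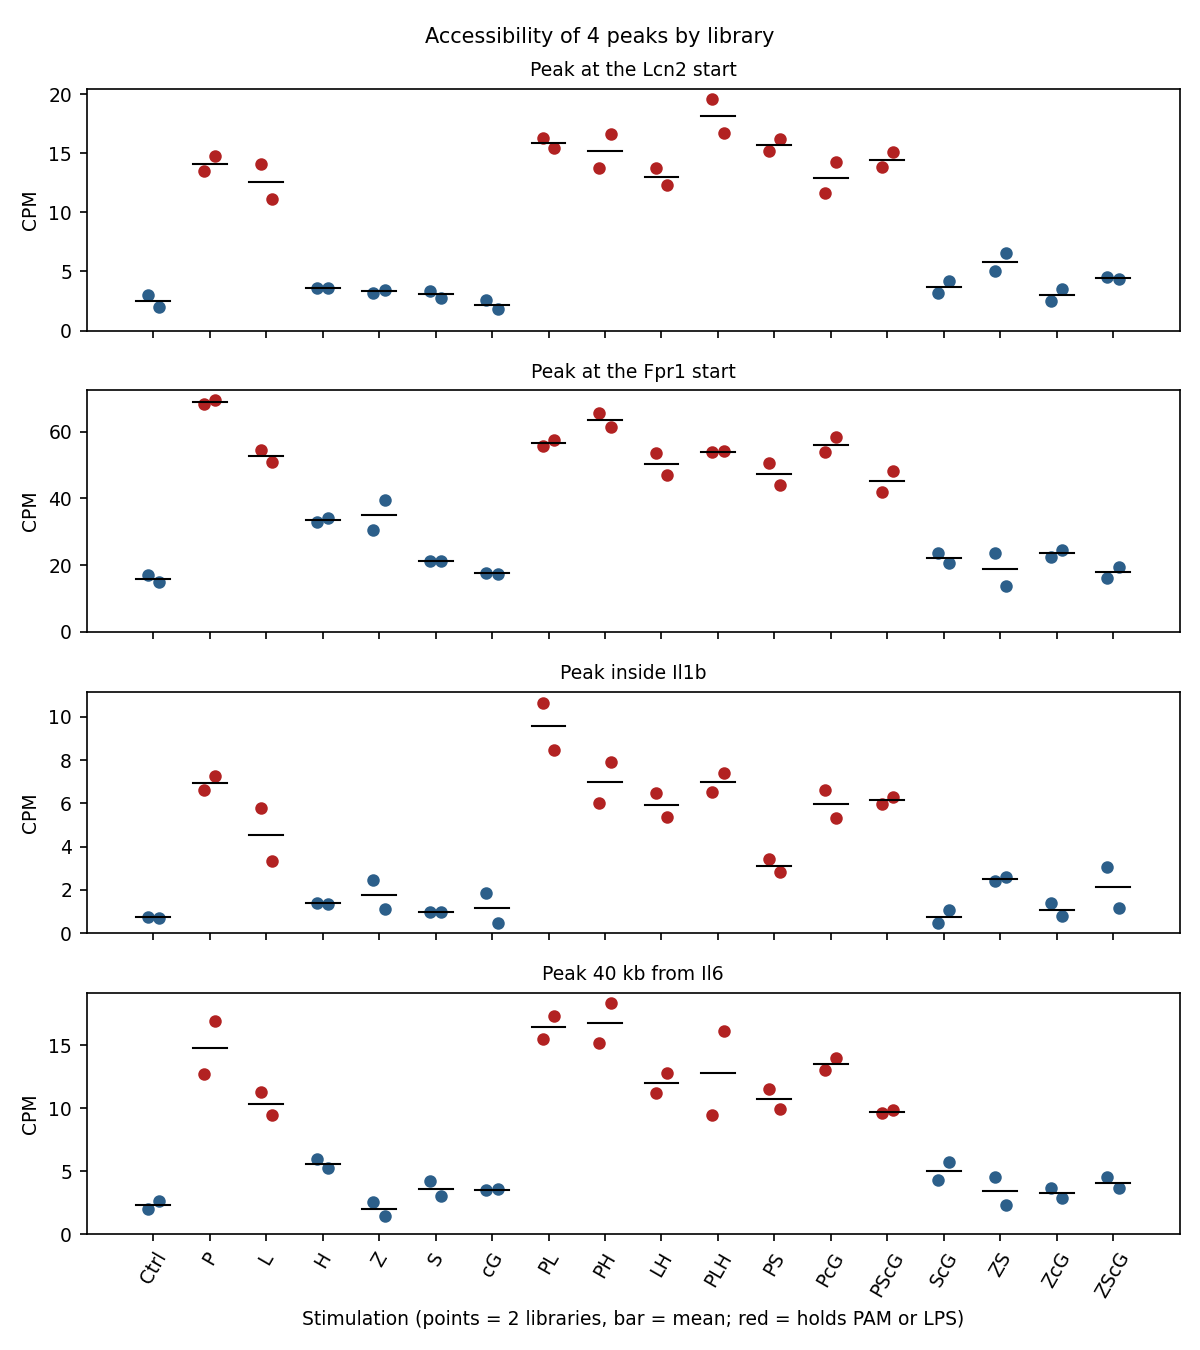
CPM (y axis) in each of the 36 libraries (points, with a bar for the mean) by group (x axis) for the members at Lcn2, Fpr1, Il1b and 40 kb from Il6. In the Lcn2 panel the libraries with PAM or LPS lie at 11.1 CPM and above and the others at 6.59 CPM and below.

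Among members with a mean of at least 1 CPM, the 8 with the largest changes in both P and L were near or in Fam43a, Zfp811, Rnf24, Arhgap17, Dock4, Ibtk, Dgkh and Arhgap15. Those near Fam43a, Rnf24, Ibtk and Dgkh lay 75942, 11610, 159664 and 57199 bp from the gene. The member near Fam43a (chr16:30678739-30679299) read 5.16 and 6.71 CPM in P and 5.10 and 3.24 CPM in L, against 0 and 0.232 CPM in Ctrl. It was higher in PH against H (3.80 ± 0.49, edgeR, adjusted p = 2.29e-10), from 7.26 and 6.22 CPM against 0.580 and 0.334 CPM.

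In PH against H and PScG against ScG, the members with the largest fitted values had few or no counts in the comparison group. The Arhgap17 member (chr7:123326809-123327513), in the gene of a GTPase-activating protein, read 10.9 and 10.8 CPM in PH against 0.912 and 0.445 in H (3.91 ± 0.40, adjusted p = 8.10e-16). It read 5.73 and 6.78 CPM in PScG against 0.229 and 1.18 in ScG (3.09 ± 0.46, adjusted p = 1.37e-07). The Slc1a2 member (chr2:102757095-102757734), in a glutamate transporter gene, read 9.01 and 10.9 CPM in PScG against 0.915 and 0.787 in ScG (3.42 ± 0.38, adjusted p = 1.56e-12). The Cwc27 member (chr13:104812796-104813223) had the largest value in PH against H (4.75 ± 0.71, adjusted p = 3.20e-08), from 3.41 and 4.89 CPM against 0.166 and 0.111 CPM. The member near Eif4g2 (chr7:111165253-111165665) had 0 counts in both ScG libraries and 1.29 and 2.14 CPM in PScG. The PScG mean (1.71 CPM) was 4.65 times a floor of 3 counts per library in ScG (0.368 CPM). Outside these 2 comparisons, the member near Iqub had 0 counts in both ZcG libraries. Its PcG mean (3.02 CPM) was 7.44 times a floor of 3 counts per library in ZcG. This member was named after its values were seen. The floor covers only counting error in the group with 0 counts, so these folds are not lower limits.

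Values with PAM in the presence of SeV and 3',3'-cGAMP ranged widely over the members. The member near Dnajb6 (chr5:29864179-29864878), a heat shock co-chaperone gene, read 14.1 and 11.4 CPM in P and 17.8 and 24.2 CPM in PScG, against 2.40 and 3.02 in ScG (2.85 ± 0.29, adjusted p = 8.12e-15). The member near Ptpn2 (chr18:67725975-67726606), a tyrosine phosphatase gene, read 4.96 and 4.35 CPM in P and 11 and 17.6 CPM in PScG, against 2.17 and 3.15 in ScG (2.33 ± 0.31, adjusted p = 2.64e-09). The Cwc27 member read 1.52 and 0.650 CPM in PScG against 0.458 and 0.131 in ScG and was not called (1.65 ± 0.78, edgeR, adjusted p = 0.247). Its PScG libraries both lay above both ScG libraries, as in 29.5% of all peaks. Differences between members were not tested. The member nearest Fgf9 (chr14:58557956-58558391), 445102 bp from that gene, read 7.04 and 6.62 CPM in P but 0.468 and 1.02 CPM in PScG against 1.26 and 1.57 in ScG. Within Fmn1, 1 of the 3 members (chr2:113529224-113529955) was higher in PScG against ScG (0.91 ± 0.28, adjusted p = 0.0387). This call was near the limit and was not followed under other settings.

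The members were compared with the 2 most similar sets of peaks, as a description. PScG against ScG was higher in 56.9% of the members, in 13.3% of 932 peaks that met the limits for P, S and cG but not for L, and in 66 of 330 peaks at 1.5 or more with all 4 stimuli. LH against H was higher in 65.9%, 14.8% and 39.4% of these sets. PH against H was higher in 87.8%, 53.3% and 66.1% of them, and PS against ZS in 62.6%, 18.3% and 43.3%. For PcG against ZcG the shares were 77.2%, 35.2% and 44.8%. In PH against LH and in PLH against LH the members did not stand out from the other sets. PH against LH was higher in 11.4%, 10.3% and 12.1% of the sets, and PLH against LH in 1.63%, 2.25% and 7.88%. The sets were cut from the same P, L, S and cG values, and the L threshold itself separates the first 2. The difference between sets was not tested.

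Among the other genes of the pathway, no receptor, adaptor, kinase, transcription factor, inhibitor, surface target or interferon gene of the lists was the nearest gene of a member. These lists held 151 (receptors), 205 (adaptors and kinases), 345 (transcription factors), 270 (inhibitors), 465 (enzymes and surface targets) and 221 (interferon genes) nearest peaks. Of all peaks, 0.106% were members, so lists of this size would hold few or none at that share. Nothing is read from their absence. By the nearest listed start, the transcription factor gene Hif1a had 1. Some genes of the lists, such as Tlr4 and Nfkb1, were the nearest listed start of no peak and could have no member this way. In PH against H, where 5.63% of all peaks were higher and 1.92% lower, 89 of 381 peaks nearest the secreted targets (23.4%) were higher and 2 lower, with a median of 0.49. For inhibitors and feedback genes 56 of 270 (20.7%) were higher and 4 lower, and for transcription factors 34 of 345 (9.86%) were higher and 7 lower. Enzymes and surface targets had 66 of 464 (14.2%) higher and 2 lower. Adaptors and kinases had 27 of 204 (13.2%) higher and 2 lower, and receptors 13 of 150 (8.67%) and 0. For interferon genes, in PH against H 6 of 221 (2.71%) were higher and 2 lower, with a median of -0.06. In LH against H 15 (6.79%, against 2.68% of all peaks) were higher and 0 lower, with a median of 0.12, and in PS against ZS 15 (6.79%, against 4.34%) were higher and 3 lower, with a median of 0.18. In PcG against ZcG 7 (3.17%, against 4.69% of all peaks) were higher and 4 lower. In PScG against ScG 1 (0.452%, against 2.06%) was higher and 1 lower.

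The dendritic and myeloid markers all had peaks, among them Itgax (strongest peak 19.9 CPM) and Spi1 (53.9 CPM), and peaks of other cell types' markers were also present. The erythroid markers Gata1 and Hba-a1 had no peak and Klf1 had one at 16.1 CPM, and the strongest peak in the B cell gene Pax5 was at 2.04 CPM. The summed levels in the libraries with PAM or LPS and in the others were 11.6 to 20.3 and 12.9 to 21.6 CPM for the erythroid list, 16.9 to 26.3 and 18.4 to 32.0 CPM for the stromal list, and 37.1 to 57.0 and 37.1 to 53.5 CPM for the epithelial list. Of the T cell markers, Cd3e had a peak and Cd3g and Trac had none, with a summed level of 0.327 to 2.57 CPM in the libraries with PAM or LPS and 0 to 1.14 CPM in the others. The part of these lists in the results was not tested.

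The edges of the rule held close neighbours. Just inside the PAM limit lay peaks near Wdr93 and Trp63 (1.52 each), and just outside it peaks near Wwox and Saa3 (1.49 each). For LPS, the peaks near Fancc and Insl6 were inside and those near Srfbp1 and Adgre1 outside, all within rounding of the limit. Just inside and outside the SeV limit lay peaks near Uaca and Ssh3 (0.50 each), and for 3',3'-cGAMP near Tnfrsf14 (0.50) and Ear2 (0.51). When the rule was applied to replicate 1 alone it took 148 peaks, of which replicate 2 met the PAM limit in 105, the LPS limit in 68, the SeV limit in 104, the 3',3'-cGAMP limit in 114 and all 4 in 28. With replicate 2 it took 126, and replicate 1 met all 4 in 28. The medians read in the replicate that did not choose were 2.00 and 1.93 for PAM, 1.41 and 1.51 for LPS, 0.14 and -0.10 for SeV, and 0.08 and -0.02 for 3',3'-cGAMP.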

How the data were processed

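Raw read counts, not normalized, were deposited for 119751 peaks in each library, and a second deposited list gives their positions. The submitters' processing notes name Bowtie2 2.2.9, MACS2 1.4, bedtools, featureCounts and mm10, with no role or order. Duplicate handling, the shift of read ends for transposase binding and whether peaks were called on pooled libraries are not given in the sources used here. Sample titles matched all 36 columns.

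Total counts were 19097027 to 39977088 per library, of which the mitochondrial peak held 44.1% to 63.1%. This peak and the largest autosomal peak (13.2% to 28.0% of the rest) were left out, and 5973882 to 18387733 counts on chromosomes 1 to 19 remained for the rule. Amplified reads carry no molecular identifiers. Replicates correlated at 0.901 to 0.958 over peaks.

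The tests used edgeR 4.0.16 with TMM scaling (R 4.3.3; glmQLFit, robust, and glmQLFTest, with a trended dispersion and filterByExpr at a minimum count of 10), with all 36 libraries in 1 fit and 18 residual degrees of freedom. A peak with a Benjamini-Hochberg adjusted p under 0.05 within its comparison was called. SE values were taken from the F statistic. On simulated counts for PScG against ScG over 118575 peaks, 17 of 100 peaks changed 2-fold and 68 of 100 changed 4-fold were recovered, with 4 false calls. Those counts were drawn with the same dispersion (0.0200) for every peak, unlike the trended dispersion of the tests. Recovery and false calls in the data may therefore differ. The members, gene lists and comparisons were chosen with earlier results of these data known. Named members were, by rule, those with the largest changes or fitted values, the highest and lowest in the mean over PS, PcG and PScG, in H and in Z, the members of gene lists, genes with 3 members and the peaks at the edges of the rule; the overlapped promoters were added. Alternatives were other scalings and filters, DESeq2, the compared groups alone, a replicate block, each library left out, and other thresholds and pseudocounts in the rule.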

Additional observations from a re-analysis of the deposited data

Results flagged for a closer look

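The member nearest Fgf9, a fibroblast growth factor gene, lay on opposite sides of its comparison group when PAM was added to different stimuli. Both PH libraries lay above both H libraries, as in 25.5% of all peaks. The log2 fold change was 1.69 ± 0.39 (SE, edgeR, adjusted p = 0.00106). Both PScG libraries lay below both ScG libraries, as in 16.8% of all peaks. This second difference was not called, with a log2 fold change of -0.97 ± 0.57 (edgeR, adjusted p = 0.406). The difference between these values was not tested.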

How the results depend on the processing

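Only members named for fitted values or from gene lists were followed singly through other settings, in PH against H and PScG against ScG. None of them that was called there changed direction. Other named members, such as those at Fpr1, Dnajb6, Ptpn2 and Fmn1, were not followed in this way. The choice of peaks moved more than the tests did. With other settings in the rule the 123 members became 62 at a pseudocount of 1 (48 of them shared), 172 at 0.25 (92 shared), 613 at 1.0 for P and L, 16 at 2.0 for P and L, 61 at 0.25 for S and cG, and 89 (77 shared) with the largest autosomal peak kept in the totals, an alternative added after the data were seen. At a pseudocount of 1, PH against H had 62 members called, PcG against ZcG 59 and PLH against LH 1. With 1.0 for P and L the counts were 392 in PH against H, 229 in LH against H, 37 in PH against LH, 1 in PLH against PH, 10 in PLH against LH, 219 in PS against ZS, 306 in PcG against ZcG, 174 in PScG against ScG, 2 in ZScG against ScG, 2 in PScG against PcG and 3 in PScG against PS, of 613.

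With only the groups compared in the fit, 22 were called in PH against LH, 5 in PLH against PH (all lower), 5 in PLH against LH and 7 in PScG against PcG (all lower). PScG against PcG had 3 with scaling by total counts and 1 with DESeq2, and PLH against LH had 1 without a filter. Scaling by total counts moved all peaks by 0.22 (log2) in PcG against ZcG, 0.11 in PScG against ScG and 0.10 in PS against ZS. Leaving out 1 library gave 92 to 102 in PH against H, 60 to 66 in LH against H, 3 to 4 in PH against LH, 57 to 74 in PS against ZS, 71 to 87 in PcG against ZcG, 45 to 50 in PScG against ScG and 0 to 0 in the other 5; a lone library was then assumed to vary like the other groups.

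Replicate numbers did not pair the samples (correlation of deviations -0.018 to 0.013). With the replicate number as a block the counts were 108, 81, 14, 0, 2, 77, 95, 70, 0, 0 and 0 in the order of the 11 comparisons plotted, as without it. In PScG against ScG, the calls of Iqub, Fam43a and Il6 were lost with only the groups compared in the fit and without any 1 of the 4 libraries, Csf3 without 3 of them and Lztfl1 without ScG replicate 2. The cause of these changes was not tested. The planned motif shares over peak windows were not run, since no genome was used. Members held a median of 7 counts in the Ctrl libraries, which limits small differences.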

Other observations

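On the X chromosome, which the rule did not cover, 2 of 2967 peaks met the same limits. The first (chrX:85697797-85698522) had a change against control of 2.60 in P and 2.17 in L, and outside the rule 2.59 in PH, 1.75 in PS and 0.74 in PScG. The second (chrX:169260271-169260746) had 2.15 in P and 1.69 in L, and 2.16 in PH, 1.30 in PS and 1.27 in PScG.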
